A study of Homo sapiens with 5 samples.

Results

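The GATA3 locus of MOLT-4 cells was examined as an 800 kb window of hg19, on chromosome 10 from 8000000 to 8800000. MOLT-4 is an established human line of T cell acute lymphoblastic leukaemia (T-ALL). The window holds the GATA3 gene, taken as 8096667 to 8117164 (20.5 kb), and 683 kb of gene-poor sequence downstream of it. Every peak of the RUNX1, H3K4me3 and SMA4 lists that shared at least 1 bp with the window was a member. This gave 26 of 51392 peaks on chromosomes 1 to 22 and X, of which 22 were RUNX1 peaks, 4 were H3K4me3 peaks and 0 were SMA4 peaks. The peaks came from CUT&RUN, in which micrococcal nuclease, tethered to an antibody through protein A/G, cuts around the target and the fragments set free are sequenced. All cells were the same line, grown in RPMI-1640 with serum, with no drug or genetic change named in the labels, and the labelled groups were antibodies: RUNX1 (Abcam), H3K4me3 (Epicypher), SMA4 (Cell Signalling Technology) and IgG. The label SMA4 is not spelled out and is used as given.

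Each of the 3 antibodies had 1 library and 1 peak list, so no value has a replicate check and no test between groups was possible. The 2 IgG samples were not used here, so no peak has an IgG value beside it. The lists give the position of each peak and no score or read count, so the depth behind a peak is unknown and width is the only size that can be compared. The SMA4 list came from another batch folder and another calling pipeline than the other lists, and antibody, batch and pipeline cannot be told apart. Whether marker genes of T cells carried the mark was not examined, because an hg19 annotation was not used here. For the same reason, exons, introns and UTRs are not given for any peak.

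GATA3 encodes a zinc-finger transcription factor that binds GATA motifs and is required for commitment to the T cell lineage. RUNX1 is a runt-domain factor that binds DNA together with CBFB and is likewise needed in developing thymocytes, and in TAL1-positive T-ALL both factors are known as parts of a shared regulatory circuit. H3K4me3, trimethylation of lysine 4 of histone H3, marks promoters of active and poised genes, whereas distal enhancers usually carry little of it. In the mouse, an enhancer far downstream of Gata3 is known to drive the gene in T and natural killer cells. Whether any peak described here is the human counterpart of that enhancer was not examined.

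RefSeq (GRCh38.p14) lists 6 transcription starts for GATA3, spread over 15.1 kb on the plus strand. The 300 bases around each start, from 250 before it to 50 after, were searched on both strands for RUNX and GATA motifs. The first RUNX form searched was TGTGGT, a hexamer that the runt domain recognises. Another form of the same binding motif, which differs in 1 letter, was TGCGGT. The GATA form searched was AGATAA. Of the 6 sequences, 3 held a RUNX motif, against 19.6% of the 35116 promoters of the table. The 6 all belong to GATA3 and are not independent, so whether these shares differ was not tested. None of the 6 held AGATAA, which was present in 10.3% of all promoters. The 3 sequences with a RUNX motif are shown because 7 RUNX1 peaks lie around the gene, and the capitals mark the motif.
GATA3 start 1, chr10:8045083-8045382 (+): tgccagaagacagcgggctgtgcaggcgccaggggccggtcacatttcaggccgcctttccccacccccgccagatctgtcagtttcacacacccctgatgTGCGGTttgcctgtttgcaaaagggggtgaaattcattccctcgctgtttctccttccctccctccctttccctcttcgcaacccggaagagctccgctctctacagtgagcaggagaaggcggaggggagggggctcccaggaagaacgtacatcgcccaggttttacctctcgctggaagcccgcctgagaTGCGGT
GATA3 start 3, chr10:8050986-8051285 (+): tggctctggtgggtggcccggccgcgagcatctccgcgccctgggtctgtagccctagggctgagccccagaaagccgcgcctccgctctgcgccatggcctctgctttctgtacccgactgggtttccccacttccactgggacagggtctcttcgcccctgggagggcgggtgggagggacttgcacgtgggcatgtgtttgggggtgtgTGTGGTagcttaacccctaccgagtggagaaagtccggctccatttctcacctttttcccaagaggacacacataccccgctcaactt
GATA3 start 6, chr10:8060207-8060506 (+): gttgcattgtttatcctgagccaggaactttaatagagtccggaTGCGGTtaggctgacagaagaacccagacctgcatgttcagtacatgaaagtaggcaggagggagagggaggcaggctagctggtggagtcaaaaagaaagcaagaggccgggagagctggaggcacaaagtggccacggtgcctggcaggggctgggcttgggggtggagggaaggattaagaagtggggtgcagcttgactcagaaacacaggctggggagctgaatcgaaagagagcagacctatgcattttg
All 4 matches read on the plus strand and none overlapped another. Start 1 had TGCGGT at 149 bases upstream of the start and again 44 bases downstream of it, and start 6 had it 206 bases upstream. TGCGGT was found in 7.29% of all promoters. Start 3 alone had TGTGGT, 38 bases upstream, a motif found in 13.1% of all promoters. These sequences had a GC content of 60.7% (start 1), 63.0% (start 3) and 54.3% (start 6), against a median of 58.7% over the table. The sequences without a RUNX motif had 62.0% (start 2), 74.7% (start 4) and 69.3% (start 5). The peaks are in hg19 and the starts in GRCh38, so no start was placed inside a peak. A match is a run of letters and does not show a binding site.

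Distances are given from base 8096667, the start of the hg19 interval used for the gene. Since RefSeq lists 6 starts over 15.1 kb and none was placed in hg19, some GATA3 starts may lie upstream of this base or inside the interval. All 4 H3K4me3 peaks of the window lay within 10 kb of the GATA3 start. The main one ran from 8095431 to 8099310, from 1236 bp before the gene start to 2643 bp after it. Its width of 3880 bp placed it 81st of 13181 H3K4me3 peaks, wider than 99.4% of the list. The other 3 were narrow. The first lay at 8087516 to 8087793 (278 bp), about 9.01 kb upstream of the gene start. The second lay at 8092201 to 8092438 (238 bp), 4.35 kb upstream. The third lay inside the gene at 8101311 to 8101489, 4.73 kb from its start, and was 179 bp wide, the minimum width of the H3K4me3 list.

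RUNX1 peaks surrounded the same stretch. Within 10 kb of the gene start, 7 RUNX1 peaks covered 7.24 kb in a region of 16.7 kb. The peak across the gene start ran from 8095033 to 8097244 (2212 bp), beginning 1634 bp before the start and ending 577 bp after it. Of its bases, 82.0% lay in the main H3K4me3 peak. A RUNX1 peak of 283 bp (8097837 to 8098119) and another of 651 bp (8098626 to 8099276) lay wholly inside that H3K4me3 peak. Together the 3 covered 70.8% of the main H3K4me3 peak.

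The widest RUNX1 peak of the window did not cross base 8096667 but lay within the gene interval, from 8101122 to 8104043. Whether any of the 6 RefSeq starts falls inside this peak is not known. The peak spanned 2922 bp, between 4.46 and 7.38 kb into GATA3. It ranked 312th of 36736 RUNX1 peaks, wider than 99.2% of them. Its overlap with the mark was limited to the 179 bp peak, which covered 6.13% of it. The rest of the gene, beyond this peak, held no peak of any list. The RUNX1 peak across the gene start ranked 986th.

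Upstream of the hg19 interval, 3 further RUNX1 peaks of 388, 418 and 368 bp lay 9.1, 5.0 and 3.88 kb before the start. The first, at 8087378 to 8087765, overlapped the H3K4me3 peak there over 250 bp. The other pair, at 8091461 to 8091878 and 8092607 to 8092974, flanked the 238 bp H3K4me3 peak without touching it, with gaps of 322 and 168 bp. Across the window, 3 of 4 H3K4me3 peaks overlapped RUNX1 (95% Wilson interval 30.1 to 95.4%), against 88.1% of the whole H3K4me3 list. The interval includes the share of the list. The 4 peaks lie around GATA3 in 1 library and are not independent, so the interval does not test whether the shares differ. With peaks within 1 kb counted as overlapping, all 4 overlapped RUNX1.

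**Figure D1:**
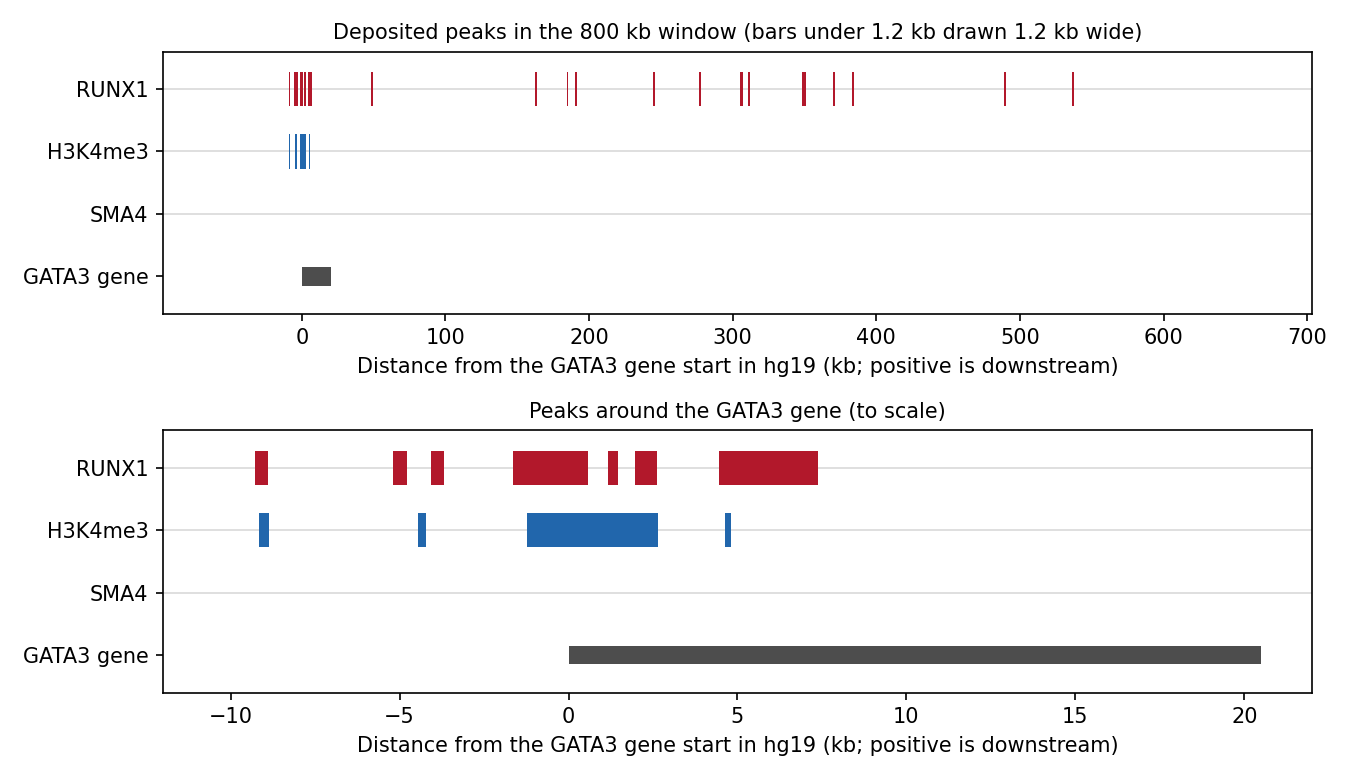
Peaks of the RUNX1, H3K4me3 and SMA4 lists by distance in kb from the GATA3 gene start in hg19, over the whole window (top) and around the gene (bottom); each bar is 1 peak, narrow peaks are widened in the top panel to be visible, and the grey bar is the gene. The 4 H3K4me3 peaks sit within 10 kb of the start, 15 of 22 RUNX1 peaks lie downstream of the gene, and the SMA4 row is empty.

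Downstream of GATA3, 15 RUNX1 peaks were spread over the gene-poor span, and no H3K4me3 or SMA4 peak lay among them. They began 48.5 kb from the gene start and ended 537 kb from it, and together covered 11.7 kb. By distance from the gene end, 1 lay within 50 kb, 0 between 50 and 100 kb, 4 between 100 and 250 kb, 9 between 250 and 500 kb and 1 beyond 500 kb. The downstream span as a whole held 22 RUNX1 peaks per Mb, against 12.1 per Mb over the whole list. The value for the list is a mean over the chromosomes, with unmappable sequence not removed. Density varied widely: 800 kb tiles with a peak of any list held a median of 9 RUNX1 peaks, with quartiles of 3 and 18. The 15 peaks here lay in 683 kb. By zone, outward from the gene, RUNX1 density was 20, 0, 26.7, 36.0 and 5.47 peaks per Mb, each resting on the few peaks just counted. The peak nearest to the gene, at 8145021 to 8145241, was 221 bp wide, the minimum of the RUNX1 list. It was followed by 114 kb without a peak.

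The widest downstream RUNX1 peak lay 277 kb from the gene start, at 8373033 to 8374924. It spanned 1892 bp and was wider than 97.8% of the 24890 RUNX1 peaks outside H3K4me3. The next, 306 kb from the start at 8401998 to 8403590, spanned 1593 bp and had a neighbour of 879 bp at 8407606 to 8408484. The third, 191 kb from the start at 8286889 to 8288281, spanned 1393 bp and had a neighbour of 337 bp 5.5 kb before it. The largest group by number was a run of 3 peaks of 366, 474 and 1058 bp at 8444745 to 8447291, about 350 kb from the start. A peak of 1058 bp at 8480092 to 8481149 lay 384 kb from the start, and the last of the window, at 8633260 to 8634086, was 827 bp wide. The remaining 4 downstream peaks stood alone, at 162, 245, 370 and 489 kb from the gene start, and were 239, 617, 540 and 249 bp wide.

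Widths differed widely among the members. The median of the 22 RUNX1 peaks was 578.5 bp, with quartiles of 366.5 and 1058 bp, against a median of 645 bp and quartiles of 380 and 1024 bp in the whole list. The 15 downstream peaks had a median of 617 bp, against 527 bp for all RUNX1 peaks outside H3K4me3. A width of 1000 bp or more, a limit chosen after the widths had been seen, was reached by 7 of 22 members. That share was 31.8% (95% Wilson interval 16.4 to 52.7%), against 26.2% of the list, and the interval includes the share of the list. Among the downstream peaks 5 of 15 reached 1000 bp (33.3%, 95% Wilson interval 15.2 to 58.3%), against 14.5% of all RUNX1 peaks outside H3K4me3. That interval begins just above the share of the list, and the peaks ending at 8447291 and 8481149 were each only 1058 bp wide. Peaks of 1 library are not independent and the limit was not fixed in advance, so the interval cannot decide whether the shares differ.

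**Figure D2:**
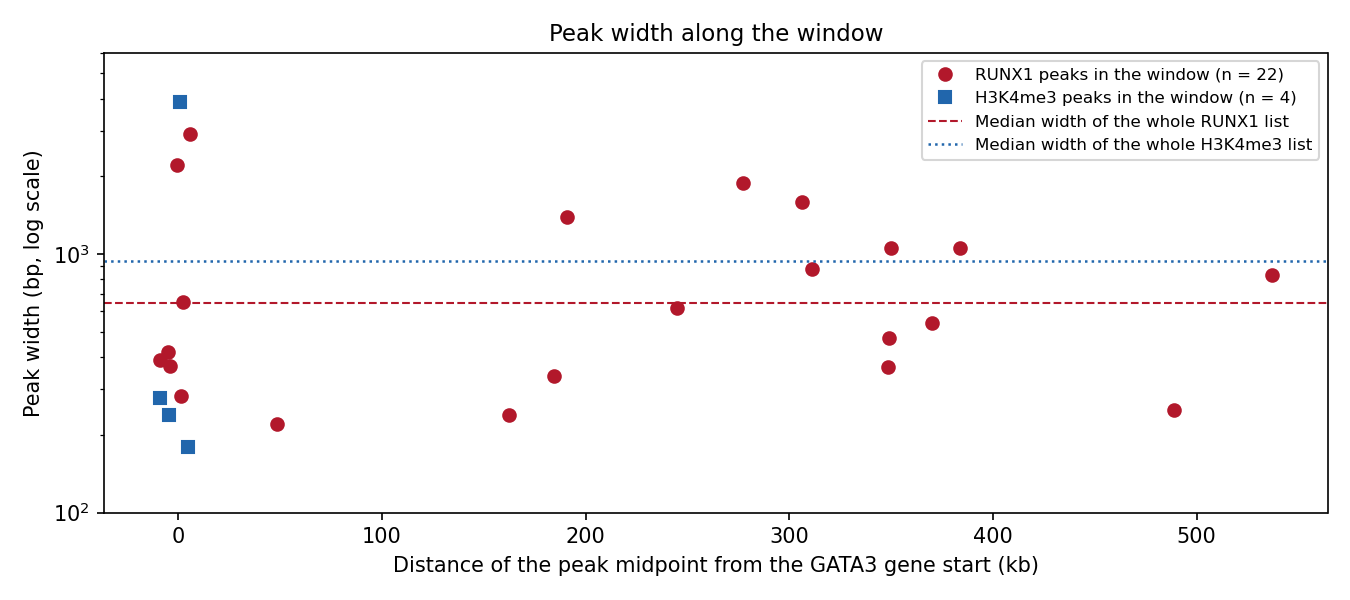
Width of each peak in bp (log axis) by the distance of its midpoint from the GATA3 gene start in kb; circles are the 22 RUNX1 peaks, squares the 4 H3K4me3 peaks, and the lines are the medians of the whole lists. The widest peaks stand at the gene, at 3880 and 2922 bp, and the widest downstream RUNX1 peak, of 1892 bp, stands 277 kb away.

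RUNX1 peaks no more than 12500 bp apart, the distance by which the ROSE method joins enhancers, formed 12 regions in the window. The region at GATA3, from 8087378 to 8104043, held 7 RUNX1 and all 4 H3K4me3 peaks. By bases in peaks it ranked 283rd of 20665 regions of the list, among the richest 1.37%. Downstream, the run of 3 peaks and 2 pairs formed regions, and 8 peaks stood alone. In all, 14 of 22 members lay in a region of 2 or more peaks, a share of 63.6% beside 64.1% for the whole list. For regions of 5 or more peaks the count was 7 of 22, beside 20.9% for the list, and all 7 belonged to the region at the gene. When peaks up to 20 kb apart were joined, the run of 3 took in its 2 neighbours and became a region of 5 peaks from 8444745 to 8481149, over 36.4 kb.

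The distal RUNX1 peaks lay far from the promoter mark. Of the 22 RUNX1 peaks, 5 overlapped H3K4me3 (22.7%, 95% Wilson interval 10.1 to 43.4%), against 32.2% of the list, and the interval includes that share. Over 50 kb from the nearest H3K4me3 peak were 14 of 22 (63.6%, 95% Wilson interval 43.0 to 80.3%), against 34.2% of the list. The same 14 were over 100 kb away, against 22.3% of the list. The median distance to the mark was 212 kb in the window and 16.7 kb in the list, overlapping peaks included. For list peaks outside H3K4me3 the median was 51.0 kb, and for the 15 downstream peaks it was 306 kb. The window peaks split into 7 within 0.322 kb of the mark and 15 at 43.5 kb or more, with none between. Intervals cover counting error only, and the distances share the same few H3K4me3 peaks at GATA3, so the members are not independent values. The window was also chosen to take in the gene-poor span, so these intervals do not test whether its peaks lie unusually far from the mark. Of 89 other tiles with at least 22 RUNX1 and 1 to 4 H3K4me3 peaks, 37 had a higher share over 50 kb.

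**Figure D3:**
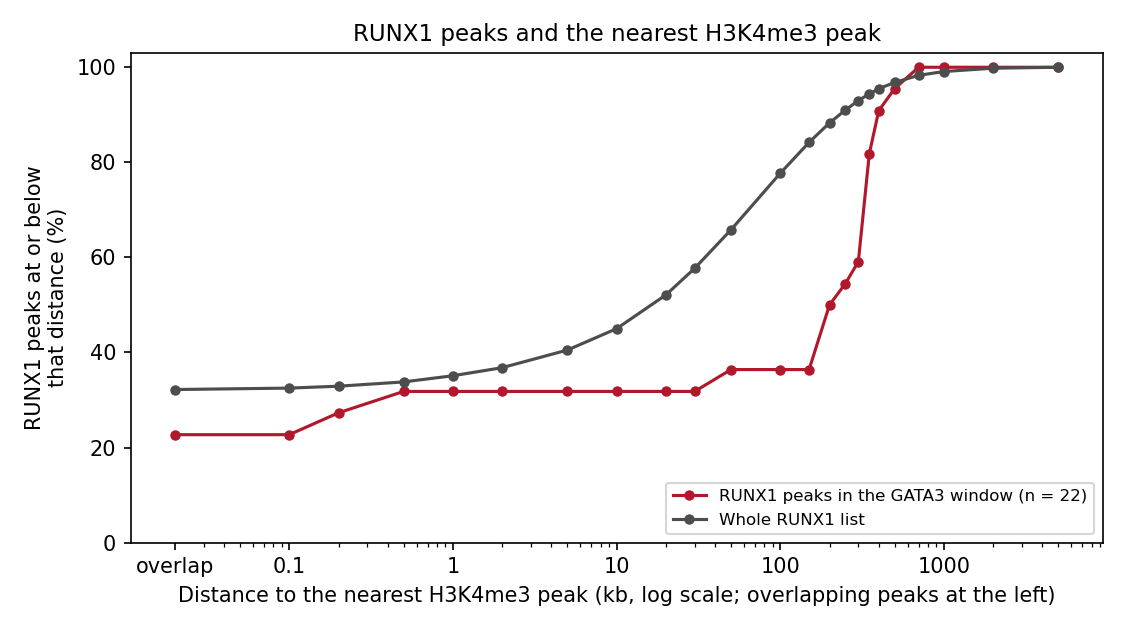
Percent of RUNX1 peaks at or below each distance from the nearest H3K4me3 peak (kb, log axis, with overlapping or touching peaks at the left), for the 22 peaks of the GATA3 window and the whole RUNX1 list. The window curve stays at 31.8% from 0.5 to 30 kb and then climbs late, with a median of 212 kb against 16.7 kb in the list.

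The 15 downstream RUNX1 peaks fell in a long stretch without H3K4me3. After the last H3K4me3 peak inside GATA3, the next began at 10932177, which left 2.83 Mb without the mark. This stretch ranked 136th in length of 644 stretches of at least 1 Mb in the H3K4me3 list, from which unmappable sequence was not removed. RUNX1 peaks were counted in a stretch when they lay wholly inside it, which leaves out the 2922 bp peak within GATA3 that begins just before this one. It held 21 RUNX1 peaks, or 7.42 per Mb, against a median of 2.42 per Mb over the 644 stretches (quartiles 0.882 and 5.98), and 125 of them were denser. Split at the window edge, the stretch held its RUNX1 peaks unevenly. The first 0.699 Mb, inside the window, held 15 peaks (21.5 per Mb), and the remaining 2.13 Mb held 6 (2.81 per Mb). The edge was fixed by the choice of the window, and no other stretch was split in this way. Whether such a split is unusual was therefore not tested.

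No member lay near an edge of the window. Upstream, the nearest RUNX1 peak outside the window was 921 bp wide at 7950268 to 7951188, 48.8 kb before the edge, and the first inside lay 87.4 kb after it. Between these peaks, 136 kb held no RUNX1 peak. Downstream, the last inside lay 166 kb before the edge and the first outside, of 282 bp at 8819335 to 8819616, lay 19.3 kb after it. In the RefSeq order of genes on chromosome 10, TAF3 is the protein-coding gene before GATA3 and CELF2 the one after it. GATA3-AS1, LINC00708 and other non-coding genes and pseudogenes are listed between GATA3 and CELF2. The order is by start only, so a gene listed after GATA3 may overlap it. GATA3-AS1, listed first after GATA3, was not placed in hg19.

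Against tiles of the same size over chromosomes 1 to 22 and X, the window was rich in RUNX1 peaks and near the median in H3K4me3 peaks. It held 22 RUNX1 peaks, or 27.5 per Mb, against a median of 9 per tile (quartiles 3 and 18) over 3067 tiles with a peak of any list, and 82.2% of tiles held fewer. It held 4 H3K4me3 peaks, against a median of 3, and 56.9% of tiles held fewer. Among the 1387 tiles with 1 to 4 H3K4me3 peaks, the median was 7 RUNX1 peaks, and 75 held more than 22. Besides the window, 89 of these tiles held at least 22. The window had 63.6% of its RUNX1 peaks over 50 kb from the mark, within the quartiles of these 89 tiles (42.9 and 70.0%, median 54.2%). The median distance of its RUNX1 peaks to the mark, 212 kb, was exceeded in 5 of the 89 tiles, over which the same value had a median of 62.0 kb.

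**Figure D4:**
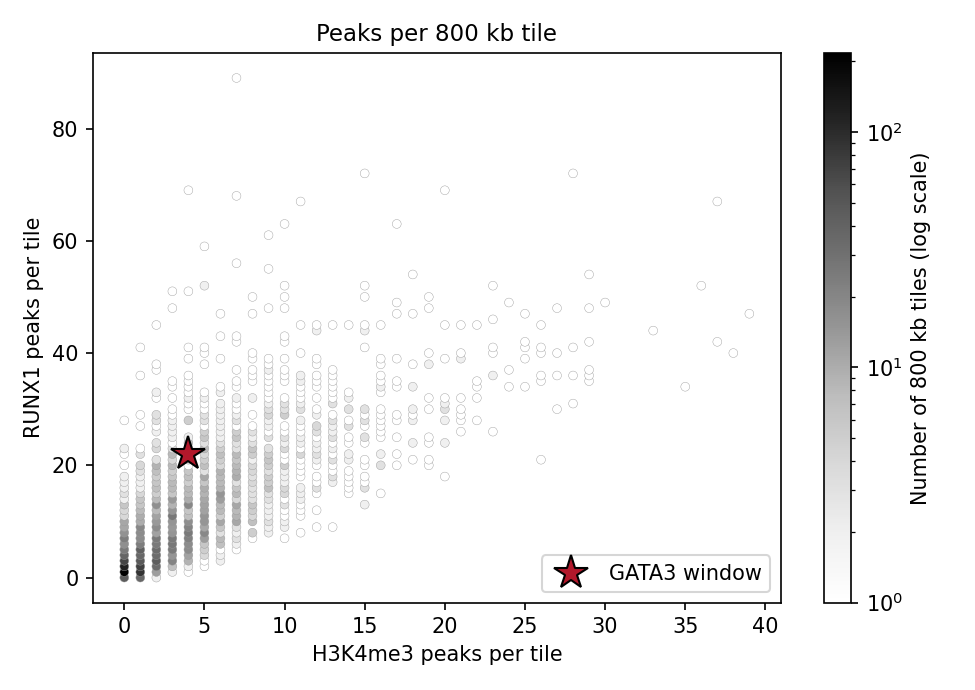
RUNX1 peaks against H3K4me3 peaks per 800 kb tile over chromosomes 1 to 22 and X; each point is a pair of counts, shaded by the number of tiles that have it (log scale), and the star is the GATA3 window. The window stands at 22 RUNX1 and 4 H3K4me3 peaks, above the median of 9 RUNX1 peaks per tile.

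The tiles nearest in the counts of the 3 lists, measured as the Euclidean distance of log2(count + 1), had the same 22 RUNX1, 4 H3K4me3 and 0 SMA4 peaks. There were 3 of these, on chromosome 4 from 48000001 to 48800000, on chromosome 9 from 100800001 to 101600000 and on chromosome 14 from 101600001 to 102400000.

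No SMA4 peak lay in the window or near it. The nearest SMA4 peaks were at 6515985 to 6516228, 1580 kb before GATA3, and at 11187559 to 11187744, 3070 kb after it. None of the 22 RUNX1 peaks overlapped SMA4, against 2.56% of the RUNX1 list, and none of the 4 H3K4me3 peaks did, against 2.39% of that list. At the density of the SMA4 list, a window of this size would hold 0.389 SMA4 peaks, and 70.9% of the 3067 tiles held 0. Of the 547 tiles with at least 22 RUNX1 peaks, the window among them, 350 held 0 SMA4 peaks, as did 43 of the 89 tiles that also had 1 to 4 H3K4me3 peaks. A count of 0 allows up to 3 peaks in a window of this size, so a lower SMA4 density at GATA3 was not detectable with a list of this length.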

How the data were processed

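The authors deposited 1 peak list per library for RUNX1, H3K4me3 and SMA4, with chromosome, start, end and a running name. Per the file headers, RUNX1 and H3K4me3 peaks came from MACS2 and SMA4 peaks from cutruntools at a q-value threshold of 0.01. The submitters' processing notes name hg19, MACS2 and SEACR. The aligner and the threshold of the MACS2 lists, on which their length depends, are not stated in any source used here.

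Starts were written 1-based. Overlaps, gaps, joined regions (12500 bp between neighbours) and tiles of 800 kb were computed with Python 3.11.15, numpy 2.4.6, pandas 2.3.3 and scipy 1.17.1, and the overlap and joining steps were tested on simulated peaks. Figures used matplotlib 3.10.9. Shares have 95% Wilson intervals, for counting error only. The members, zones and lists were chosen with earlier results of these data known.

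Peaks were named by rule: all H3K4me3 and SMA4 peaks, RUNX1 peaks within 5 kb of GATA3, the 10 widest, those nearest each window edge, regions of 3 or more peaks, and the 3 tiles with the nearest counts. Other downstream RUNX1 peaks and the stretch without H3K4me3 were added after their values had been seen. Sequences are from RefSeq (GRCh38.p14), where GATA3 matched by symbol.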

Additional observations from a re-analysis of the deposited data

How the results depend on the processing

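The results were recomputed under 64 alternative values, of which 55 stayed within 1.5 times the count or within the interval of the share or median. Some of the 55 were counts of 0, for SMA4 peaks and for zones without peaks. These had little or no room to change, so the number 55 overstates how far the results were put to a test. With only peaks at least as wide as the median of their list, 10 RUNX1 and 1 H3K4me3 peaks remained in the window. Without peaks at the minimum width, the zone from 0 to 50 kb downstream held 0 RUNX1 peaks, against 1, and the gene body held 1 H3K4me3 peak, against 2. With peaks within 1 kb counted as overlapping, 100% of the H3K4me3 peaks met RUNX1. Over all tiles, empty ones included, 85.6% held fewer RUNX1 peaks and 65.2% fewer H3K4me3 peaks than the window. The H3K4me3 share was 59% over tiles of chromosome 10 and 49% without peaks at the minimum width.

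A stricter caller threshold was not run, since the lists hold no scores. No paired analysis was possible because each antibody had 1 library. The depth behind the lists is unknown, and signal under the caller's threshold was not seen here.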
